A study of Caenorhabditis elegans with 6 samples.

Results

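The flp and nlp genes, which encode most of the neuropeptide precursors of Caenorhabditis elegans, were followed in RNA sequencing of whole worms harvested at the L4 larval stage. The genes were chosen by name, as those whose symbol begins with flp- or nlp-, without nlp-24 to nlp-34. Of the 46778 genes with values, 102 carried such a symbol, 11 of them were left out by name, and 91 remained as members (31 flp and 60 nlp genes). Averaged over the 6 libraries, 88 members (30 flp and 58 nlp) reached 0.5 FPKM, and these were tested together with all other genes above that level, 15453 in all. FPKM counts sequenced fragments scaled for the length of the transcript and for the total of the library, so levels can be compared between genes per unit of length.

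The worms came from 2 groups of 3 libraries each. Worms of the let-607 RNAi group were wild-type N2 animals grown at 20 °C from synchronized L1 larvae on Escherichia coli HT115 that made double-stranded RNA against let-607, a CREBH-like transcription factor, and the study's methods state that these bacteria were diluted with vector bacteria. Control worms were N2 animals grown in the same way on HT115 with the empty vector L4440. In N2 worms, neurons are known to respond poorly to RNAi by feeding. Nothing in the labels says that the 3 libraries of a group came from separate cultures, so p-values measure only the spread between these libraries, which may be technical.

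A neuropeptide precursor is cut by proprotein convertases inside dense core vesicles, trimmed by carboxypeptidases and amidated at its C-terminus, and the released peptides act mainly on G protein-coupled receptors. The flp precursors give FMRFamide-like peptides, which end in Arg-Phe-amide, while the nlp genes gather other peptide families. Most members are made in small sets of neurons, but some are made elsewhere, such as nlp-40, whose product is released from the intestine.

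The target of the RNAi was examined first. let-607 (WBGene00002783) had 71.0, 76.2 and 77.9 FPKM in libraries labelled let-607 RNAi and 69.1, 57.1 and 57.3 FPKM in the control libraries, a log2 fold change of 0.30 (standard error, SE, of 0.08, adjusted p = 0.034 by limma). By these values its mRNA was not lower in the group named for its knockdown. The study also measured let-607 mRNA by qPCR, which was not analysed here, so these FPKM alone do not settle whether the knockdown took effect, and every direction given here is that of the libraries labelled let-607 RNAi against the control libraries. Leaving out replicate 2 or 3 of either group raised the adjusted p of let-607 to between 0.109 and 0.117 by limma, and it was 0.154 after median-of-ratios scaling and 0.103 after quantile normalization.

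Over all genes, the deposited values summed to between 1400487 and 1429914 FPKM in libraries labelled let-607 RNAi and to between 1448934 and 1485099 FPKM in the control libraries. Correlations of log2 values were 0.955 to 0.965 within a group and 0.930 to 0.945 between groups. The log2 fold changes of all tested genes had a median of 0.12, so that a typical gene read slightly higher in libraries labelled let-607 RNAi, and changes of the members were read against that shift. Median-of-ratios scaling and quantile normalization between libraries remove this shift, and many calls of small rises are lost under them.

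As a group, the neuropeptide genes changed little, with a median close to that of all genes. Their median log2 fold change was 0.13 (quartiles 0.00 and 0.22), both for the 30 flp genes (0.13) and for the 58 nlp genes (0.13), beside 0.12 for all genes tested. The log2 fold change was above 0 for 66 of 88 members (75%, against 67.2% of all genes tested), but it was above the median of all genes for 47 of 88. It lay between -0.5 and 0.5 for 79 of 88 members. The quartiles of all genes tested, -0.07 and 0.34, were inside that range too, and the share of all genes inside it was not computed.

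Few members passed the thresholds of the study's methods, an adjusted p under 0.1 with a change of more than 2-fold. nlp-48 and nlp-19 rose, and nlp-46 and nlp-23 fell, by this rule. These 4 of 88 members are 4.55%, beside a background of 5.14% of all genes tested (3.75% higher and 1.40% lower), so the share was near the background. The counts rest on few genes and few libraries: without let-607 RNAi replicate 1 or without control replicate 3, 1 member was higher by this rule, and without let-607 RNAi replicate 2, control replicate 2 or control replicate 3, 1 member was lower.

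With no minimum fold change, an adjusted p under 0.1 was reached by 24 of 88 members (27.3%), below the background of 43.0%. Of these, 21 were higher (8 flp and 13 nlp genes, 23.9% of members against 31.7% of all genes) and 3 were lower (nlp-46, nlp-23 and nlp-36, 3.41% against 11.4%). The groups did not overlap for 27 members (23 higher and 4 lower), beside 49.1% of all genes (35.7% higher and 13.4% lower). The 95% interval of the log2 fold change excluded a 2-fold change in either direction for 74 of 88 members. This interval included the median of all genes for 71 members. It lay above that median for 9 (nlp-19, nlp-48, nlp-62, nlp-67, nlp-14, nlp-8, flp-27, flp-3 and flp-15). It lay below that median for 8 (nlp-46, nlp-23, nlp-36, nlp-58, nlp-101, nlp-17, nlp-18 and flp-10). Shares of all genes were not computed for these intervals, so the counts describe the members alone.

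**Figure D1:**
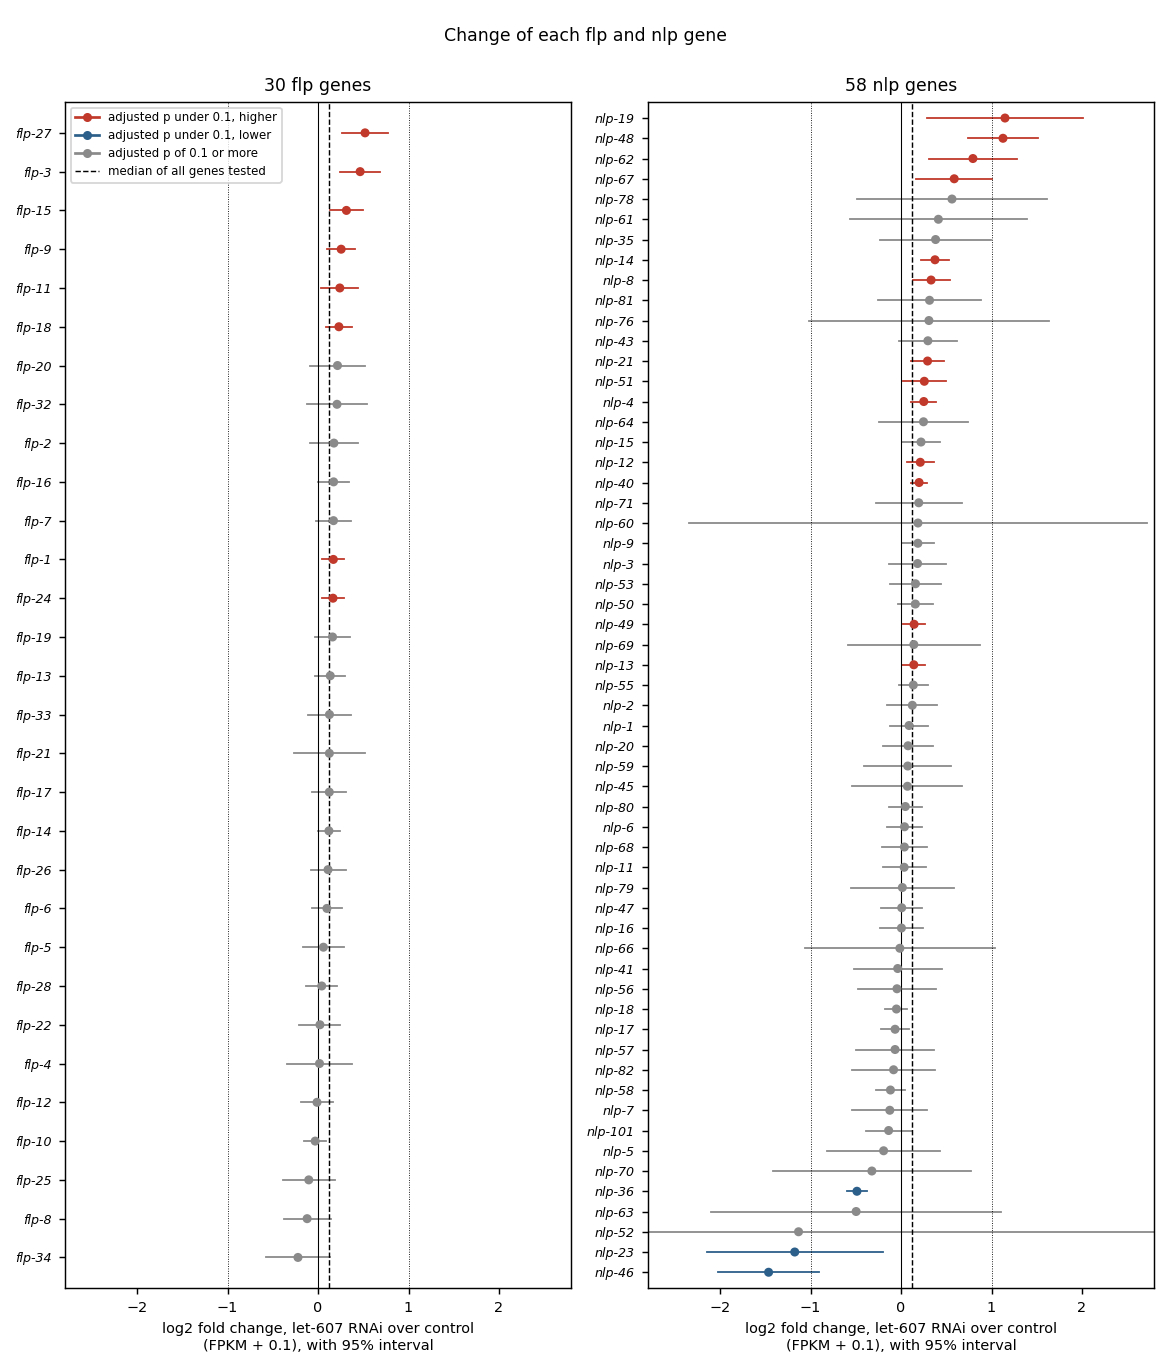
Log2 fold change of FPKM + 0.1, libraries labelled let-607 RNAi over control libraries, for each of the 30 flp genes (left) and 58 nlp genes (right) tested. Points are limma estimates and lines their 95% intervals, coloured by the adjusted p, with dotted lines at a 2-fold change, a dashed line at the median of all genes tested (0.12), and the interval of nlp-52 running past the axis. Most points lie close to the dashed line, and 4 nlp genes passed the 2-fold rule.

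The share of calls was also below that of genes of like level, except under 5 FPKM. Members of 5 to 20 FPKM were called in 21.2% of cases (n = 33), against 45.2% of all genes of that level, and members of 20 to 50 FPKM in 25.9% (n = 27), against 53.1%. Among genes of 50 FPKM or more the shares were 50% of 12 members and 58.4% of all genes. Below 5 FPKM they were 25% of 16 members and 21.1% of all genes. Only 2 of the 88 members, nlp-46 and nlp-52, lay outside the 5th to 95th percentile of the log2 fold changes of all genes in their interval of level, and the groups of nlp-52 overlapped.

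**Figure D2:**
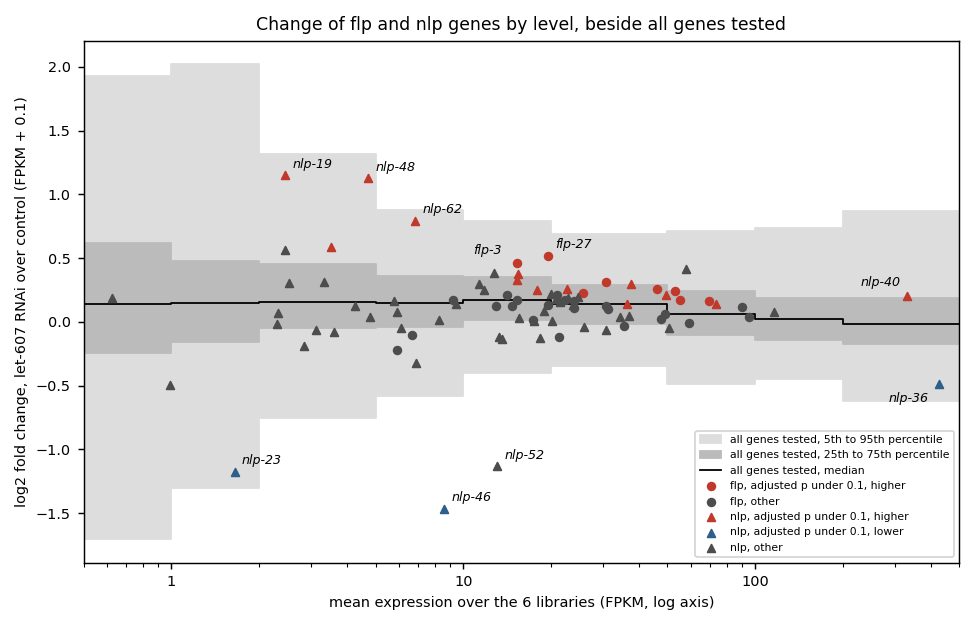
Log2 fold change of FPKM + 0.1, libraries labelled let-607 RNAi over control libraries, against the mean over the 6 libraries (FPKM, log axis) for the 88 members, with circles for flp and triangles for nlp genes. Grey bands give the 5th to 95th and the 25th to 75th percentiles, and the black line the median, of all 15453 genes tested in 9 intervals of level. The members follow the black line, and nlp-46 (-1.46) and nlp-52 (-1.13) lie below the bands. For nlp-52 the mean FPKM was higher in libraries labelled let-607 RNAi, and let-607 RNAi replicate 2 was at 0 FPKM.

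How many members were called, and in which direction, changed with the scaling between libraries. Scaling to equal sums (TPM) gave 30 members higher and 3 lower with a median of 0.18, beside 38.1% of all genes higher and 8.88% lower. Median-of-ratios scaling gave 7 higher and 7 lower with a median of 0.01, beside 18.8% of all genes higher and 19.3% lower with a median of 0.00 (38.1% in either direction). Quantile normalization gave 6 higher and 10 lower with a median of -0.03, beside 16.6% and 18.9% of all genes (35.4% in either direction) with a median of -0.03. Under each of these scalings the share of members called stayed below the share of all genes called. Calls in the same direction under the deposited values and all 3 scalings were made for 8 members. Of these, nlp-48, nlp-62, flp-27, flp-3 and nlp-14 were higher, and nlp-46, nlp-36 and nlp-23 were lower. The share of all genes called in this way was not computed, so the count has no background beside it.

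**Figure D3:**
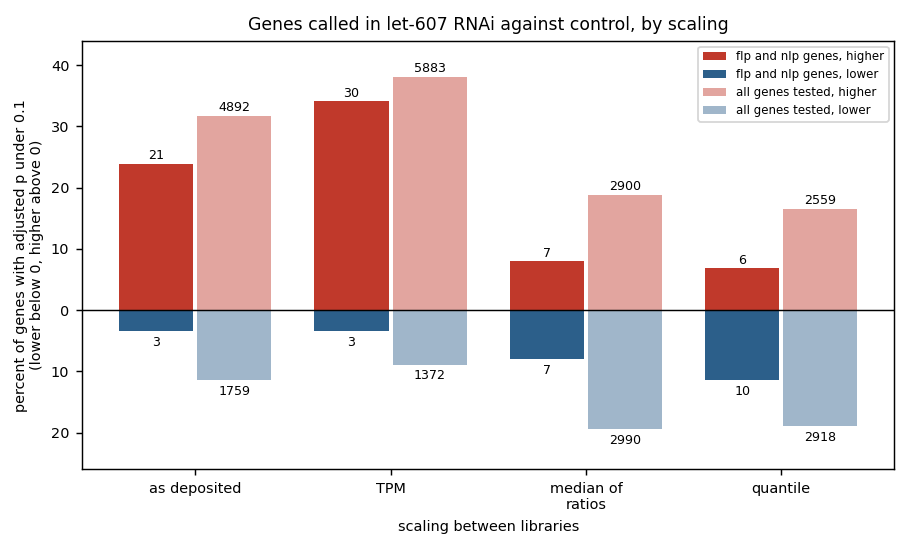
Percent of the 88 flp and nlp genes (solid bars) and of all 15453 genes tested (pale bars) with an adjusted p under 0.1 by limma, higher in libraries labelled let-607 RNAi above 0 and lower below 0, for the deposited FPKM and 3 scalings between libraries. Numbers at the bars are counts of genes. The 21 higher and 3 lower members of the deposited values became 7 and 7 after median-of-ratios scaling, and the bars of the members are shorter than those of all genes throughout.

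nlp-46 (WBGene00012145) showed the largest fall among the members called. It lies on chromosome V from 12505059 to 12506285 on the minus strand of WBcel235, with 440 nt of exons. It had 6.60, 3.78 and 3.55 FPKM in libraries labelled let-607 RNAi and 13.98, 11.38 and 12.2 FPKM in the control libraries. Every library labelled let-607 RNAi was below every control library, although its replicate 1 stood above the other libraries of its group. The means were 4.64 ± 1.70 and 12.5 ± 1.33 FPKM (SD, n = 3 each). On the log2 scale nlp-46 fell by 1.46 (SE 0.23, adjusted p = 0.00416 by limma), and the call held without any single library (adjusted p at most 0.027 by limma). Of its exons, 88 nt are shared with T28H10.1 on the other strand, which had a log2 fold change of 0.20 (adjusted p = 0.292 by limma).

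nlp-36 (WBGene00007185), the member with the highest level, fell as well. It lies on chromosome III from 9488731 to 9489186 on the plus strand and has 352 nt of exons. Its values were 371, 356 and 337 FPKM in libraries labelled let-607 RNAi and 501, 509 and 481 FPKM in the control libraries. The groups were far apart relative to their spread, with means of 355 ± 17.5 and 497 ± 14.7 FPKM (SD, n = 3 each). On the log2 scale it fell by 0.49 (SE 0.05, adjusted p = 0.000519 by limma), with values between -0.61 and -0.44 under the 3 scalings. It shares 11 nt of exon with dars-1 on the other strand, whose log2 fold change was 0.09 (adjusted p = 0.101 by limma).

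nlp-40, second in level, moved the other way. This gene encodes a peptide that the intestine releases to time the defecation motor program through the receptor AEX-2. It had 355, 360 and 348 FPKM in libraries labelled let-607 RNAi and 297, 311 and 318 FPKM in the control libraries, without overlap. It rose by 0.20 on the log2 scale (SE 0.04, adjusted p = 0.00754 by limma), which is 0.08 (adjusted p = 0.178 by limma) after median-of-ratios scaling. nlp-36 and nlp-40 together made up 24.9% to 25.7% of the summed FPKM of the members in the libraries labelled let-607 RNAi and 28.96% to 30.5% in the control libraries.

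nlp-23 (WBGene00003761) was the other member lower by the 2-fold rule, at a low level. It is an RPamide precursor gene of the family of nlp-2 and nlp-22. Its values were 1.29, 1.09 and 0.54 FPKM in libraries labelled let-607 RNAi and 1.34, 2.95 and 2.67 FPKM in the control libraries. The groups did not overlap, but control replicate 1 was only slightly above the highest library labelled let-607 RNAi. On the log2 scale nlp-23 fell by 1.17 (SE 0.41, adjusted p = 0.0669 by limma). The call was lost without let-607 RNAi replicate 2 (adjusted p = 0.125), let-607 RNAi replicate 3 (0.163), control replicate 2 (0.192) or control replicate 3 (0.189). For single-exon genes of 500 to 550 nt, close to the 502 nt of nlp-23, the smallest value above 0 was 0.11 to 0.46 FPKM by library. The lowest value of nlp-23, 0.54 FPKM, is near the upper end of that range.

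nlp-23 stands in a run of 4 members on the minus strand of chromosome X, from nlp-45 (2337600 to 2338310) through nlp-22 and nlp-23 to nlp-2 (2343947 to 2344766), all inside the span of T01B6.1 on the other strand. nlp-22, which encodes a sleep-promoting peptide of the RIA neurons, was listed at 0 FPKM in all 6 libraries. nlp-2 had 4.46 ± 0.49 FPKM in libraries labelled let-607 RNAi and 4.07 ± 0.24 FPKM in the control libraries, and nlp-45 had 2.34 ± 0.24 and 2.30 ± 0.78 FPKM (SD, n = 3 each). Neither passed the test (adjusted p of 0.444 and 0.853 by limma). T01B6.1 itself had a log2 fold change of 0.04 (adjusted p = 0.677 by limma).

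Among the members that rose, nlp-48 (WBGene00008002) kept its call without any single library and under all 3 scalings. It lies on chromosome III from 9400531 to 9401136 on the minus strand, within the span of rgr-1 on the other strand and without shared exon bases. It had 6.57, 7.41 and 5.58 FPKM in libraries labelled let-607 RNAi and 2.75, 3.53 and 2.54 FPKM in the control libraries. The lowest library labelled let-607 RNAi was well above the highest control library. It rose by 1.13 on the log2 scale (SE 0.16, adjusted p = 0.00277 by limma), between 1.03 and 1.26 when each library was left out in turn and 0.93 after quantile normalization.

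nlp-19 (WBGene00003757), on chromosome X from 10958727 to 10959253, had 4.0, 2.67 and 3.38 FPKM in libraries labelled let-607 RNAi and 1.67, 2.20 and 0.79 FPKM in the control libraries. The groups did not overlap, and control replicate 3 was the lowest. nlp-19 rose by 1.15 on the log2 scale (SE 0.36, adjusted p = 0.0498 by limma). This was 0.76 without control replicate 3, and the call was lost without let-607 RNAi replicate 1 (adjusted p = 0.152), without let-607 RNAi replicate 3 (0.130) and after quantile normalization (0.119).

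nlp-62 had 9.58, 8.03 and 8.22 FPKM in libraries labelled let-607 RNAi and 5.44, 6.12 and 3.54 FPKM in the control libraries, again without overlap, with a log2 fold change of 0.79 (SE 0.20, adjusted p = 0.0245 by limma). nlp-67 had 4.90, 3.57 and 4.22 FPKM in libraries labelled let-607 RNAi against 3.00, 2.26 and 3.09 FPKM in the control libraries. Its log2 fold change was 0.59 (SE 0.18, adjusted p = 0.0414 by limma). The call of nlp-67 was lost in 3 of the 6 fits with a library left out, those without let-607 RNAi replicate 1 or 3 or control replicate 2 (adjusted p up to 0.126 by limma), and after quantile normalization (0.16).

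**Figure D4:**
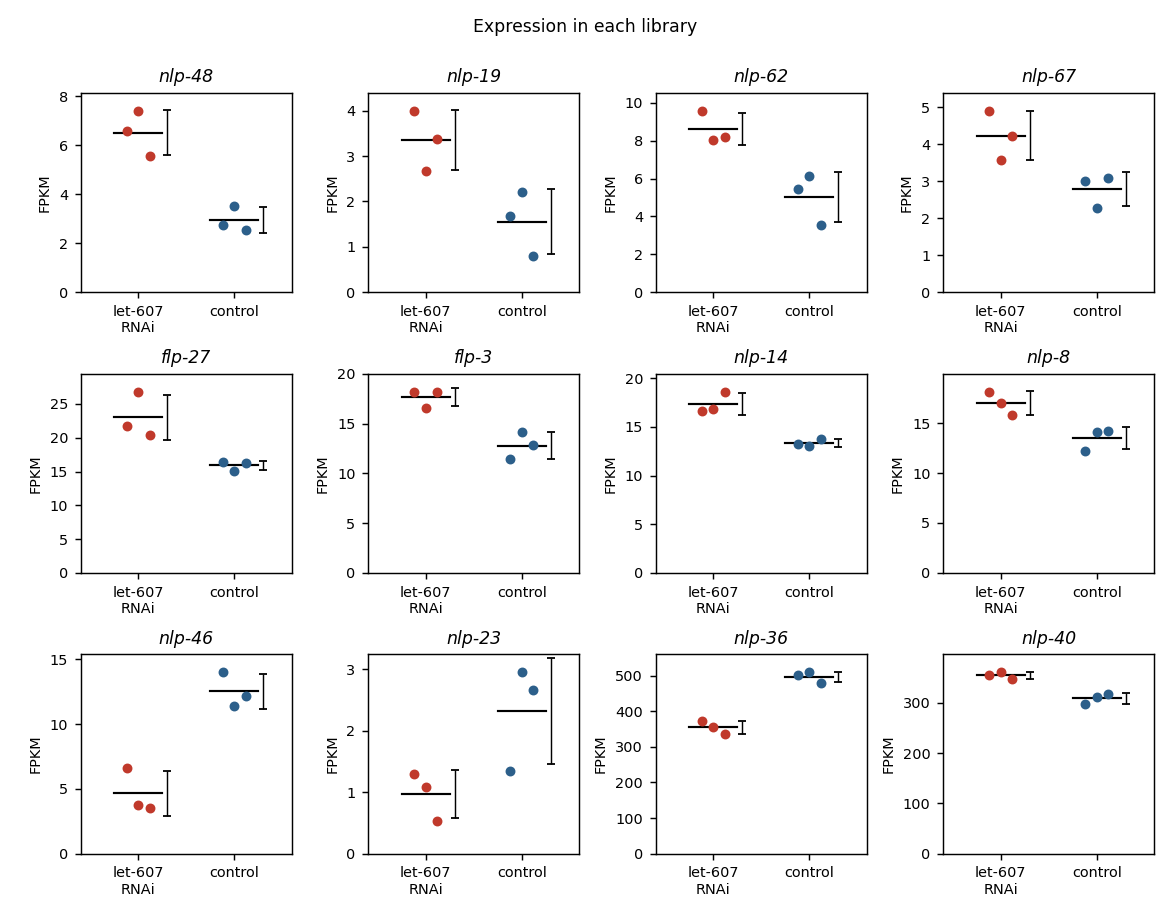
FPKM of 12 members in each library, libraries labelled let-607 RNAi at the left and control libraries at the right of each panel, on linear axes that start at 0. Points are libraries, horizontal lines are group means and the bars beside them are 1 SD (n = 3). The groups do not overlap in the 12 panels, because all genes but nlp-40 were chosen as called members without overlap. Among all genes tested, 49.1% had groups without overlap. In the panels of nlp-46, nlp-23 and nlp-36 the libraries labelled let-607 RNAi are lower.

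Among flp genes, flp-27 and flp-3 had the largest changes. flp-27, which encodes a neuropeptide Y/F-like peptide, had 21.8, 26.8 and 20.4 FPKM in libraries labelled let-607 RNAi and 16.4, 15.1 and 16.3 FPKM in the control libraries. Its groups did not overlap, and let-607 RNAi replicate 2 stood above the other libraries. flp-27 rose by 0.52 on the log2 scale (SE 0.11, adjusted p = 0.0107 by limma), and 0.40 without that library. The related flp-34, which acts in aversive learning through the receptor NPR-11, had 5.42 ± 0.46 FPKM in libraries labelled let-607 RNAi and 6.39 ± 1.12 FPKM in the control libraries (SD, n = 3 each) and did not pass the test (adjusted p = 0.291 by limma).

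flp-3, which acts in male behaviour, had 18.2, 16.6 and 18.1 FPKM in libraries labelled let-607 RNAi and 11.4, 14.1 and 12.9 FPKM in the control libraries. It rose without overlap, by 0.47 on the log2 scale (SE 0.09, adjusted p = 0.009 by limma). On chromosome X it lies between flp-28 and flp-2, within 10087314 to 10095245 on the minus strand, and all 3 genes are inside the span of W07E11.1 on the other strand. Its neighbours did not pass the test. flp-28, which was among the 5 highest members, had 96.4 ± 4.17 FPKM in libraries labelled let-607 RNAi and 93.9 ± 8.21 FPKM in the control libraries, and flp-2, which acts in arousal and in the response to oxidants, had 16.2 ± 2.22 and 14.3 ± 1.13 FPKM (SD, n = 3 each). The adjusted p-values of flp-28 and flp-2 were 0.696 and 0.271 by limma.

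Among genes of sleep and quiescence, flp-11, made by the sleep neuron RIS, had 57.9, 57.5 and 56.1 FPKM in libraries labelled let-607 RNAi and 45.6, 44.8 and 55.5 FPKM in the control libraries. It rose by 0.24 on the log2 scale (SE 0.09, adjusted p = 0.0711 by limma), with control replicate 3 close to the libraries labelled let-607 RNAi. Leaving out any library other than control replicate 3 lost this call (adjusted p up to 0.196 by limma), as did median-of-ratios scaling (0.12, adjusted p = 0.352) and quantile normalization (0.15, adjusted p = 0.235). It shares 17 nt of exon with tmem-135 on the other strand, which was also higher (log2 fold change 0.17).

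Of the peptides that the ALA neuron uses for sleep after cellular stress, nlp-8 had 18.15, 17.04 and 15.83 FPKM in libraries labelled let-607 RNAi and 12.2, 14.1 and 14.2 FPKM in the control libraries and rose by 0.33 on the log2 scale (SE 0.09, adjusted p = 0.0253 by limma). That call was lost after median-of-ratios scaling (0.21, adjusted p = 0.1195 by limma) and quantile normalization (0.14, adjusted p = 0.286 by limma). flp-24 had 72.4, 72.4 and 75.7 FPKM against 69.2, 63.6 and 63.9 FPKM in the control libraries. It rose by 0.17 on the log2 scale, close to the shift of all genes, and was not called after median-of-ratios scaling (log2 fold change 0.04) or without let-607 RNAi replicate 3, control replicate 2 or control replicate 3 (adjusted p up to 0.112 by limma). flp-13, the third of these peptides, had 20.4 ± 1.33 FPKM in libraries labelled let-607 RNAi and 18.6 ± 0.82 FPKM in the control libraries (SD, n = 3 each), with overlapping groups and an adjusted p of 0.176 by limma.

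Of the orcokinin-like genes nlp-14 and nlp-15, nlp-14 was called. This gene, which promotes sleep, had 16.6, 16.8 and 18.6 FPKM in libraries labelled let-607 RNAi and 13.2, 13.1 and 13.8 FPKM in the control libraries. It rose by 0.38 on the log2 scale (SE 0.07, adjusted p = 0.00606 by limma) and was called under all 3 scalings. nlp-15 had 21.4 ± 1.47 FPKM in libraries labelled let-607 RNAi and 18.4 ± 1.76 FPKM in the control libraries (SD, n = 3 each) without overlap, but its log2 fold change of 0.22 did not pass (adjusted p = 0.103 by limma). The difference between nlp-14 and nlp-15 was not tested.

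Peptides of egg laying did not pass the test. nlp-3, which promotes egg laying from the HSN neurons, had 25.9, 21.3 and 19.1 FPKM in libraries labelled let-607 RNAi and 18.5, 22.1 and 17.5 FPKM in the control libraries. nlp-7, which inhibits egg laying, had 13.01, 21.13 and 18.99 FPKM in libraries labelled let-607 RNAi and 20.04, 17.74 and 19.03 FPKM in the control libraries. Both sets overlapped, with adjusted p-values of 0.337 and 0.621 by limma. flp-10 and flp-17, whose peptides inhibit egg laying through EGL-6, had log2 fold changes of -0.03 and 0.12 (95% intervals -0.16 to 0.09 and -0.06 to 0.31), and flp-10 was called lower after median-of-ratios scaling (log2 fold change -0.15).

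Among genes of locomotion and arousal, 3 with levels above 40 FPKM were called, while flp-2 (above) and flp-20 (below) were not. flp-1, a locomotion peptide of the AVK neurons, had 59.9, 58.3 and 57.5 FPKM in libraries labelled let-607 RNAi and 49.7, 51.6 and 55.1 FPKM in the control libraries (log2 fold change 0.17, adjusted p = 0.0435 by limma). nlp-12, a cholecystokinin-like peptide of the stretch-sensitive DVA neuron, had 51.2, 56.2 and 52 FPKM in libraries labelled let-607 RNAi and 45.1, 43.4 and 49.1 FPKM in the control libraries (log2 fold change 0.21, adjusted p = 0.0414 by limma). nlp-49, which encodes a ligand of the arousal receptor SEB-3, had 75.8, 74.3 and 81.0 FPKM in libraries labelled let-607 RNAi and 70.1, 72.2 and 66.7 FPKM in the control libraries (log2 fold change 0.14, adjusted p = 0.074 by limma). The groups of these 3 genes did not overlap, yet the estimates were within 0.1 of the median of all genes. After median-of-ratios scaling none of the 3 was called, with log2 fold changes of 0.05 for flp-1, 0.09 for nlp-12 and 0.02 for nlp-49. Calls were also lost without let-607 RNAi replicate 1 or 2 or control replicate 2 for flp-1 (adjusted p up to 0.112), without let-607 RNAi replicate 2 or control replicate 2 for nlp-12 (up to 0.124), and without replicate 1 or 3 of either group for nlp-49 (up to 0.178).

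The ligands of the social feeding receptor NPR-1 gave one call. flp-18 had 26.7, 28.4 and 28.4 FPKM in libraries labelled let-607 RNAi and 22.2, 24.3 and 24.7 FPKM in the control libraries, and rose by 0.23 on the log2 scale (SE 0.06, adjusted p = 0.0276 by limma), which is 0.11 (adjusted p = 0.238 by limma) after median-of-ratios scaling. flp-21 had 13.3, 16.9 and 15.5 FPKM in libraries labelled let-607 RNAi and 11.7, 17.57 and 12.99 FPKM in the control libraries. Its groups overlapped and it did not pass (adjusted p = 0.592 by limma).

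Among peptides of sensory and metabolic signalling, nlp-1, which passes from the AWC olfactory neurons to NPR-11, had 19.4 ± 0.52 FPKM in libraries labelled let-607 RNAi and 18.3 ± 1.95 FPKM in the control libraries. flp-6, which links the thermosensory neuron AFD to lifespan, had 32.3 ± 2.05 and 30.1 ± 1.797 FPKM (SD, n = 3 each), and neither gene passed (adjusted p of 0.464 and 0.321 by limma). flp-7, a tachykinin-like peptide that drives fat loss in the intestine through NPR-22, had 9.63, 9.68 and 10.1 FPKM in libraries labelled let-607 RNAi and 8.79, 7.92 and 9.41 FPKM in the control libraries. Its groups did not overlap, but its log2 fold change of 0.17 did not pass (adjusted p = 0.161 by limma). The mRNA of the receptor gene npr-22 was higher, at 2.48, 2.26 and 2.88 FPKM in libraries labelled let-607 RNAi and 1.93, 1.96 and 1.65 FPKM in the control libraries (log2 fold change 0.44, adjusted p = 0.0772 by limma). It was not called after median-of-ratios scaling (log2 fold change 0.32) or in 5 of 6 fits with a library left out. This receptor was chosen after values were seen, and 6 of 77 tested receptor genes were higher (7.79%, beside 31.7% of all genes).

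Of the 5 members with the highest levels, nlp-20 and flp-14 remain. nlp-20 had 135, 123 and 101 FPKM in libraries labelled let-607 RNAi and 114, 102 and 122 FPKM in the control libraries, which overlapped (log2 fold change 0.08, adjusted p = 0.646 by limma). flp-14 had 89.9, 98.6 and 93.3 FPKM in libraries labelled let-607 RNAi and 85.7, 83.1 and 90.4 FPKM in the control libraries, and its log2 fold change of 0.12 equalled the median of all genes (adjusted p = 0.123 by limma). Thus of the 5 highest members, nlp-36 fell, nlp-40 rose, and nlp-20, flp-28 and flp-14 did not pass.

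Calls of the other 6 members that rose were also small. flp-15, a ligand gene of the receptor NPR-3, had 37.8, 32.9 and 31.8 FPKM in libraries labelled let-607 RNAi and 26.5, 27.2 and 28.5 FPKM in the control libraries, a log2 fold change of 0.31 (adjusted p = 0.0195 by limma). nlp-21 had 39.7, 38.2 and 46.1 FPKM in libraries labelled let-607 RNAi and 33.03, 33.8 and 33.98 FPKM in the control libraries (0.29, adjusted p = 0.0253 by limma). Neither set overlapped, but nlp-21 shares 46 nt of exon with subs-4 on the other strand, which was higher by 0.25 on the log2 scale. flp-9 had 50.5, 51.6 and 47.8 FPKM in libraries labelled let-607 RNAi and 44.9, 41.8 and 38.9 FPKM in the control libraries (0.26), and nlp-4 had 19.3, 20.4 and 18.5 FPKM against 16.1, 16.6 and 16.1 FPKM (0.25), again without overlap.

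nlp-13 had 38.5, 37.6 and 38.6 FPKM in libraries labelled let-607 RNAi and 33.6, 36.9 and 33.6 FPKM in the control libraries, an estimate of 0.14 that is close to the shift of all genes (adjusted p = 0.0859 by limma). nlp-51 had 23.7, 24.4 and 25.8 FPKM in libraries labelled let-607 RNAi and 23.98, 19.3 and 18.9 FPKM in the control libraries (0.26, adjusted p = 0.0922 by limma). It was the only called member with overlapping groups, because control replicate 1 was above let-607 RNAi replicate 1. When each library was left out in turn, nlp-13 kept its call only without control replicate 2 and nlp-51 only without control replicate 1. None of these 6 genes was called after median-of-ratios scaling, where their log2 fold changes were between 0.02 and 0.19. The call was kept in every fit with a library left out for 14 of the 24 called members. It was lost in at least 1 such fit for the other 10 (nlp-19, nlp-23, nlp-67, nlp-49, nlp-12, nlp-13, nlp-51, flp-1, flp-11 and flp-24). For these 10 the adjusted p reached between 0.112 and 0.251 by limma. The share of all called genes that kept their calls in this way was not computed.

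Some members at moderate and high levels had intervals that lay below the shift of all genes, although they did not pass by the deposited values. nlp-18, whose peptides act on the cholecystokinin receptor homologs, had 51.1, 48.9 and 48.9 FPKM in libraries labelled let-607 RNAi and 54.3, 50.3 and 49.7 FPKM in the control libraries. nlp-58 had 12.9, 13.04 and 12.3 FPKM in libraries labelled let-607 RNAi and 13.7, 14.7 and 13.1 FPKM in the control libraries. The groups of nlp-18 overlapped and those of nlp-58 did not (adjusted p of 0.479 and 0.227 by limma). After median-of-ratios scaling nlp-18, nlp-58, nlp-17 and flp-10 were called lower, at -0.17, -0.24, -0.19 and -0.15.

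Other members gave estimates that the spread did not set apart from 0. nlp-47, a gene for a peptide like gonadotropin-releasing and adipokinetic hormone, had 18.8, 16.5 and 17.2 FPKM in libraries labelled let-607 RNAi and 15.3, 18.3 and 18.8 FPKM in the control libraries, with overlap and a log2 fold change of 0.01 (adjusted p = 0.961 by limma). flp-20, which acts in touch-evoked arousal, had 15.1 ± 0.76 FPKM in libraries labelled let-607 RNAi and 13.1 ± 2.18 FPKM in the control libraries (SD, n = 3 each), also with overlap (adjusted p = 0.235 by limma).

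Some members varied between libraries of 1 group more than between groups. nlp-52, with 281 nt of exons the shortest of the members tested, had 29, 0 and 17.35 FPKM in libraries labelled let-607 RNAi and 20.5, 8.34 and 2.98 FPKM in the control libraries. nlp-61 had 68.8, 53.1 and 65.1 FPKM in libraries labelled let-607 RNAi and 94.1, 29.3 and 36.5 FPKM in the control libraries, with control replicate 1 above all others. nlp-76 had 0.94, 3.02 and 5.25 FPKM in libraries labelled let-607 RNAi and 1.96, 1.78 and 2.26 FPKM in the control libraries. The exons of nlp-76 share 67 nt with nhr-17 on the same strand, so its values are uncertain. For nlp-52, nlp-61 and nlp-76 the groups overlapped and none passed. The spread of log2 values within groups was over 0.5 for 10 members and under 0.2 for 56.

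Of the 3 members that were not tested, flp-23 had 0.24, 0 and 0 FPKM in libraries labelled let-607 RNAi and 0.70, 0 and 0 FPKM in the control libraries, while nlp-22 and nlp-39 were listed at 0 in all 6 libraries. Just above the minimum, nlp-60 had 0.97, 1.55 and 0 FPKM in libraries labelled let-607 RNAi and 0.25, 0.46 and 0.51 FPKM in the control libraries, and nlp-63 had 0.34, 0.37 and 2.16 FPKM against 1.07, 1.30 and 0.70 FPKM. Both sets overlapped, and changes of either gene were not detectable at this level (adjusted p of 0.911 and 0.605 by limma). For single-exon genes of 300 to 330 nt the smallest value above 0 was 0.09 to 0.93 FPKM by library. A short member can thus be transcribed below the least value that a library records.

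Summed over the 88 tested members, the libraries labelled let-607 RNAi held 2859, 2790 and 2751 FPKM and the control libraries 2757, 2693 and 2720 FPKM, about 0.20% and 0.18% to 0.19% of all FPKM. The sums overlapped. The sum of the 30 tested flp genes did not, with 1024, 1039 and 1010 FPKM in libraries labelled let-607 RNAi and 923, 931 and 960 FPKM in the control libraries, while the sum of the 58 tested nlp genes was 1741 to 1835 FPKM in libraries labelled let-607 RNAi and 1760 to 1834 FPKM in the control libraries. After median-of-ratios scaling the flp sums overlapped as well, at 988, 981 and 976 FPKM in libraries labelled let-607 RNAi and 958, 978 and 1000.5 FPKM in the control libraries. The nlp sums include nlp-36, which fell from a mean of 497 FPKM to 355 FPKM. Without nlp-36 and nlp-40, the deposited values of the members summed to 2132, 2073 and 2067 FPKM in libraries labelled let-607 RNAi. In the control libraries these sums were 1959, 1872 and 1922 FPKM, without overlap. Median-of-ratios scaling divides by 1.04 to 1.06 in libraries labelled let-607 RNAi and by 0.952 to 0.963 in the control libraries. Sums without nlp-36 and nlp-40 were not computed after that scaling, so whether they stay apart is not shown. A difference between flp and nlp genes was not tested. In RNA from whole worms, fewer cells of a type and less RNA per cell cannot be told apart. Neuronal markers had the following values. The 14 pan-neuronal markers summed, without scaling, to 212 to 222 FPKM in libraries labelled let-607 RNAi and 195 to 203 FPKM in the control libraries. Of these, 3 were called higher (rab-3, unc-33 and unc-64) and none lower, with a median log2 fold change of 0.04. The share called higher was 21.4%, below the 31.7% of all genes, and 4 of the 14 lay above the median of all genes. After median-of-ratios scaling 1 was higher and none lower (median -0.08), beside 18.8% and 19.3% of all genes. After quantile normalization 1 was higher and 2 were lower (median -0.12), beside 16.6% and 18.9% of all genes.

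The 16 markers of transmitter classes summed to 138 to 143 FPKM in libraries labelled let-607 RNAi and 163 to 168 FPKM in the control libraries. None was higher and 2 were lower, bas-1 and tdc-1 (12.5%, near the 11.4% of all genes). After median-of-ratios scaling 4 were lower (25%, beside 19.3% of all genes), and 5 after quantile normalization (31.25%, beside 18.9%). Without replicate 1 or 3 of the libraries labelled let-607 RNAi or control replicate 2 or 3, 1 of them was lower. bas-1, the aromatic amino acid decarboxylase, averaged 28.6 ± 0.99 FPKM in libraries labelled let-607 RNAi and 47.3 ± 1.48 FPKM in the control libraries (SD, n = 3 each). None of the markers of either neuronal list was under the minimum of 0.5 FPKM. Among marker lists of other tissues, 28 of 31 msp sperm genes (90.3%) and 4 of 7 epidermal markers (57.1%) were higher, beside 31.7% of all genes. None of either list was lower. The remaining lists were mixed or flat by the deposited values. Of 11 germline markers 4 were higher and 1 was lower, and of 8 intestine markers 1 was higher and 2 were lower. Of 7 body wall muscle markers 2 were higher and 1 was lower, and none of 5 pharynx markers was called. After median-of-ratios scaling, 1 intestine marker was higher and 6 were lower, beside 19.3% of all genes lower. Of the body wall muscle markers, 0 were then higher and 4 lower. After quantile normalization, 1 intestine marker was higher and 3 were lower, and 2 body wall muscle markers were higher and 2 lower. The epidermal count was 1 after median-of-ratios or quantile scaling and without let-607 RNAi replicate 3, and 2 without let-607 RNAi replicate 2 or control replicate 2, whereas 28 msp genes were higher under both scalings. The msp genes summed to 20938 to 21761 FPKM in libraries labelled let-607 RNAi and 12415 to 14291 FPKM in the control libraries. Their part in the changes of the peptide genes was not tested.

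Of 11 genes of peptide processing, 5 were higher (45.5%, beside 31.7% of all genes) and none lower (beside 11.4%). Their median log2 fold change was 0.13, near the 0.12 of all genes. The count was 3 without any 1 of the libraries labelled let-607 RNAi, and 2 higher and 1 lower without control replicate 3. egl-3, the PC2-like convertase that cuts most precursors, had 40.9, 39.4 and 44.5 FPKM in libraries labelled let-607 RNAi and 34.1, 34.37 and 31.03 FPKM in the control libraries (log2 fold change 0.33, adjusted p = 0.011 by limma). Its groups did not overlap. Its chaperone gene sbt-1, the 7B2 homolog, was called at 0.13, cpd-2, a carboxypeptidase D-like gene, at 0.48 and bli-4, a convertase of cuticle proteins, at 0.21, and with each library left out in turn sbt-1 kept its call in 1 of 6 fits and bli-4 in 3. egl-21, the carboxypeptidase E that trims most peptides, had 67 ± 1.09 FPKM in libraries labelled let-607 RNAi and 62.8 ± 3.81 FPKM in the control libraries (SD, n = 3 each) and did not pass (adjusted p = 0.217 by limma). After median-of-ratios scaling 2 of the 11 were higher and 1 lower, beside 18.8% and 19.3% of all genes. After quantile normalization 2 were higher and 2 lower, beside 16.6% and 18.9% of all genes.

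Among 14 genes of dense core vesicles, 4 were higher (28.6%, near the 31.7% of all genes) and none lower, with a median of 0.15. After median-of-ratios scaling 1 was higher and 1 lower, beside 18.8% and 19.3% of all genes. After quantile normalization 1 was higher and 2 were lower, beside 16.6% and 18.9% of all genes. Leaving out a library gave 1 higher without let-607 RNAi replicate 3 or control replicate 3, and 2 without let-607 RNAi replicate 1 or 2 or control replicate 2. unc-108, the RAB-2 GTPase of vesicle maturation, had 232, 230 and 224 FPKM in libraries labelled let-607 RNAi and 165, 160 and 161 FPKM in the control libraries, a log2 fold change of 0.49 (adjusted p = 0.000137 by limma) that stayed at 0.37 after median-of-ratios scaling. tbc-8 and ric-19, which act with it in vesicle maturation, were called at 0.36 and 0.32, calls that were kept in 1 and 2 of 6 fits with a library left out. unc-31, the CAPS protein required for vesicle release, had 4.88, 6.19 and 8.04 FPKM in libraries labelled let-607 RNAi and 5.13, 3.81 and 5.29 FPKM in the control libraries, which overlapped (adjusted p = 0.186 by limma).

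Of 7 other peptide precursor genes, pdf-1 and pdf-2, which encode pigment dispersing factors, and trh-1, the thyrotropin-releasing hormone-like gene, were higher, with log2 fold changes of 0.19, 0.41 and 0.40. These 3 of 7 are 42.9%, beside 31.7% of all genes. None of the 7 was lower by the deposited values. After median-of-ratios or quantile scaling none was higher and 2 were lower, beside 19.3% and 18.9% of all genes lower. The calls of pdf-1, pdf-2 and trh-1 were kept in 3, 2 and 4 of 6 fits with a library left out. The median of the list was 0.19.

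Peptide receptor genes were measured at low levels, with 77 of 107 above the minimum. Of these, 6 were higher and 4 lower, 10 of 77 in all, beside 43.0% of all genes tested and 21.1% of those under 5 FPKM, with a median log2 fold change of 0.00. Median-of-ratios scaling turned the counts to 3 higher and 6 lower (median -0.11), beside 18.8% and 19.3% of all genes. Quantile normalization gave 2 higher and 8 lower (median -0.22), beside 16.6% and 18.9% of all genes. Leaving out let-607 RNAi replicate 1 gave 3 higher and 3 lower, and leaving out control replicate 2 gave 3 higher and 5 lower. By the 2-fold rule none was higher and 2 were lower, or 1 without let-607 RNAi replicate 2 or 3. frpr-11 had 2.93, 3.08 and 2.50 FPKM in libraries labelled let-607 RNAi and 6.46, 6.38 and 5.21 FPKM in the control libraries (log2 fold change -1.06, adjusted p = 0.00161 by limma), and frpr-9 had 0.66, 0.43 and 0.75 FPKM against 1.72, 1.25 and 1.44 FPKM (-1.16, adjusted p = 0.0223 by limma). frpr-5 was lower by 0.79 on the log2 scale, and npr-40, npr-28 and npr-10 were the 3 called receptors with the largest rises, at 0.74, 0.69 and 0.65.

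**Figure D5:**
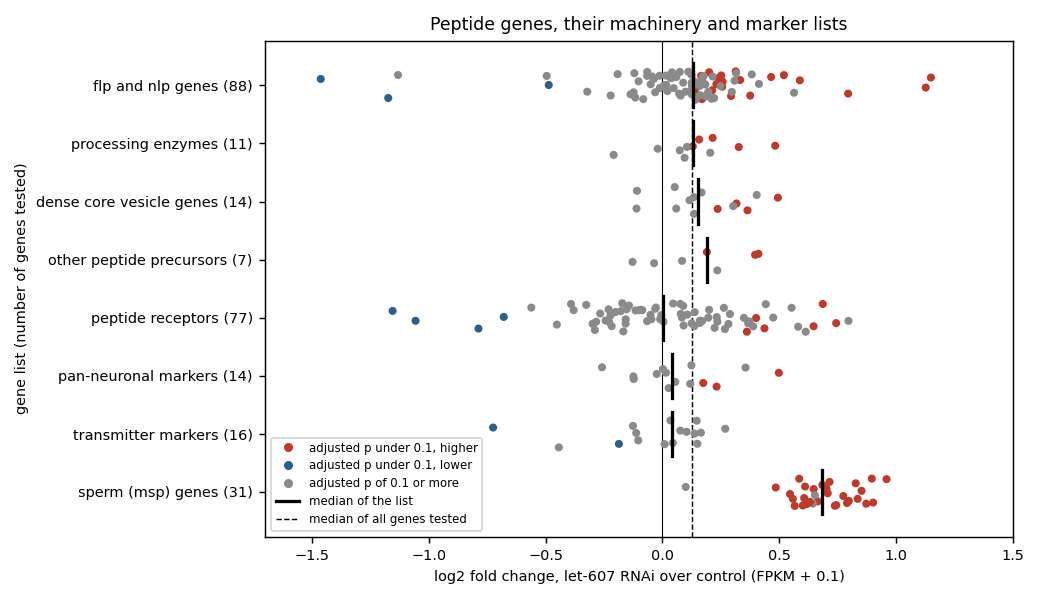
Log2 fold change of FPKM + 0.1, libraries labelled let-607 RNAi over control libraries, for each tested gene (points, coloured by the adjusted p of limma) of the flp and nlp genes, of 4 lists of related genes and of 3 lists of markers, with the median of each list as a black bar and the median of all genes tested (0.12) as a dashed line. The bars of the flp and nlp genes (0.13) and of the processing enzymes (0.13) lie at the dashed line, those of the receptors (0.00) and pan-neuronal markers (0.04) below it, and that of the msp sperm genes (0.68) above it.

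The 11 nlp genes left out by name gave other values, with a median log2 fold change of 0.83. Of these, 5 were higher (45.5%, beside 31.7% of all genes) and 1 was lower (9.09%, beside 11.4%). nlp-25, the largest of these changes, had 27.5, 27.6 and 24.2 FPKM in libraries labelled let-607 RNAi and 3.39, 4.31 and 4.64 FPKM in the control libraries (log2 fold change 2.66, adjusted p = 3.52e-05 by limma). nlp-34 and nlp-31 were higher by 1.36 and 1.24 on the log2 scale, and nlp-24 fell by 0.52. The log2 fold changes of the members tested lay between -1.46 and 1.15.

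The members also share features that their choice by name did not use. They are short, with a median exon length of 597.5 nt against 1329 nt for all protein-coding genes tested, and a median coding length of 280.5 nt against 1062 nt. A single transcript is annotated for 64 of the 88 tested members. Chromosome X holds 31 of the 88 tested members (35.2%), against 13.7% of all genes tested. On X, 8 of 31 members were called (25.8%), beside 33.1% of all genes on X, with medians of 0.16 for the members and 0.05 for all genes. On chromosome I, 5 of 8 members (62.5%) were called, all higher (nlp-62, nlp-8, nlp-4, nlp-12 and nlp-40). Of all genes there, 36.4% were higher and 10% lower, 46.4% in either direction. Of the 5 members, nlp-62 alone was called after median-of-ratios scaling. Leaving piRNA genes aside, another annotated gene overlaps 31 of the 91 members, and 15 share exon bases with one.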

How the data were processed

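The deposited table holds FPKM per gene in 6 libraries, rounded by the authors to 2 decimals. The study's methods name stranded mRNA libraries, TopHat and Cufflinks with WBcel235, whereas the submitters' processing notes list fastp, HISAT and RSEM, so the upstream tools are uncertain. The values hold no counts, and the depth of each library is not given in the sources used here. Precision therefore rests on the spread between 3 libraries per group. Of 48197 lines, 1 broken line was left out and 1418 repeated lines were used once. No per-sample column was left unused. Identifiers were matched to Ensembl annotation release 115 (46603 of 46778 genes), and upstream filters are not given.

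Genes that averaged 0.5 FPKM or more were compared on log2(FPKM + 0.1) with limma 3.58.1 in R 4.3.3 (lmFit, eBayes with trend, no covariates). This scale understates changes of low genes. For nlp-52, with 0 FPKM in let-607 RNAi replicate 2, the estimate depended on the value added. Benjamini-Hochberg adjustment ran over 15453 genes. Thresholds were an adjusted p under 0.1, with or without a fold change above 2. Groups came from the sample titles. The step was checked on simulated data. Alternatives were pseudocounts of 1 and 0.01, no minimum, minimums of 1 and 5 FPKM, TPM, median-of-ratios and quantile scaling, a replicate block, eBayes without trend, and leaving out each library. Tables and figures used Python 3.11.15, pandas 2.3.3, numpy 2.4.6, scipy 1.17.1 and matplotlib 3.10.9.

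The members, the gene lists and the rule for genes named were chosen with earlier results of these data known. The rule named members past the 2-fold rule, the 8 called members without overlap with the largest change in each direction, the 5 highest members, members with a known role, and the 2 just above and 2 just under the minimum, with other members in brief. From each related list it took up to 3 called genes in each direction. The grouping by function, and npr-22, were chosen after values were seen.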

Additional observations from a re-analysis of the deposited data

How the results depend on the processing

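The replicate numbers did not pair the libraries, since deviations of same-numbered libraries correlated at -0.058, 0.003 and -0.018. With the replicate number as a block, 20 members were higher and 2 lower, and 2 were higher and 1 lower by the 2-fold rule. Calls lost under the block were nlp-23 (adjusted p = 0.109), nlp-49 (0.149), nlp-13 (0.150) and nlp-51 (0.135), all by limma. By that rule, a pseudocount of 1 and a minimum of 5 FPKM each gave 0 higher and 1 lower, and quantile normalization gave 0 higher. Leaving out each library gave 1 to 2 higher and 1 to 2 lower by the 2-fold rule, 15 to 20 higher and 2 to 4 lower without a minimum fold, and a member median of 0.10 to 0.14. Median-of-ratios scaling gave 7 higher, 7 lower and a median of 0.0088, quantile normalization 6 higher, 10 lower and -0.031, and TPM a median of 0.18. For let-607 it was 0.18 after median-of-ratios and 0.22 after quantile scaling, neither past the threshold, and 0.25 to 0.39 when each library was left out.

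For the 30 named members with a test, 404 of 472 alternative fits kept direction and side of the threshold, 42 lost the call, 6 gained one and 20 changed sign. Every sign change was in a member that was not called. After median-of-ratios scaling these were nlp-20 (-0.045), flp-28 (-0.082), flp-14 (-0.0027), flp-6 (-0.025) and nlp-1 (-0.034). After quantile normalization they were flp-28 (-0.032), flp-6 (-0.052), flp-13 (-0.037), nlp-1 (-0.091), flp-2 (-0.012), flp-21 (-0.060), flp-17 (-0.067) and nlp-60 (-0.094). With a pseudocount of 0.01, nlp-60 was at -0.69. With each library left out, the log2 fold changes ran from -0.018 to 0.20 for nlp-20, from -0.032 to 0.091 for flp-28, from -0.27 to 0.082 for nlp-7 and from -0.59 to 1.43 for nlp-60. The cause of these differences was not tested.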
